A study of Mus musculus with 3 samples.

Results

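Homologous recombination and Fanconi repair genes were examined in a mouse line of dental epithelial cells, CLDE, taken from the cervical loop of the incisor. The 39 genes were listed by symbol as BRCA mediators, recombination partners and paralogs, resection factors, Fanconi proteins, structure-selective nucleases, damage kinases and the end joining polymerase Polq. They were found on the array through gene names, older aliases and listed transcripts, and 90 of 56605 probes belonged to them, out of 24891 named genes. All 39 were measured in every comparison.

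The arrays were 1-colour Agilent mouse arrays of total RNA taken 72 h after transfection, with 1 array per group: siRNA duplexes against keratin 15 (siKrt15), non-targeting control siRNAs (siNeg), and mock transfection. All were of the same cell line in keratinocyte serum-free medium, and the siRNAs were delivered with a lipid reagent. What the mock cells received is not described further, and the labels do not say whether the arrays came from separate cultures. For the siKrt15 and siNeg arrays the titles and the descriptions name opposite siRNAs, and groups here follow the titles. The targeted gene Krt15 had a processed signal of 267 on the siKrt15 array, against 1647 on the siNeg array and 2638 on the mock array. The titles go with this order, and under the descriptions every siKrt15 against siNeg difference below would change sign. The comparisons of siKrt15 and of siNeg with mock would then also change places.

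Homologous recombination repairs a double-strand break by copying an intact sister chromatid. Nucleases first trim the ends to single strands, BRCA proteins then prepare these strands for exchange, and partner proteins and translocases help them to find and invade the intact copy. The Fanconi pathway acts at DNA cross-links that block replication forks: a core complex attaches ubiquitin to the Fancd2 and Fanci clamp, and nucleases then unhook the cross-link. Both pathways work mainly in S and G2 phase, and many of their genes are transcribed more in cycling than in resting cells. Inherited mutations in some of these genes cause cancer predisposition or Fanconi anaemia in people.

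The 3 arrays lay on 1 slide and shared 1 scan time, so neither separates the groups. Between 67.2% and 69.2% of the 59305 spots that were not controls were well above background, and 0 were saturated. The processed signal is the scanner's background-subtracted brightness in arbitrary units, and the 75th percentile of an array was 216 for siKrt15, 180 for siNeg and 191 for mock. Differences are therefore given between log2 signals after that percentile was subtracted, whereas signals are given unscaled. Errors are SDs of the scanner's error model, with a median of 0.21 over the members, and they leave out the spread between cultures. For a gene with several probes the error is the mean over its probes, so it also leaves out any disagreement between them. With 1 array per group no difference was tested and no p-value exists. A gene was counted at 2-fold, a log2 difference of 1. Epithelial markers were measured for 10 of 10 genes, with the basal keratin Krt5 at 117327 in siKrt15, 105468 in siNeg and 102674 in mock. Summed signals over the measured markers of other cell types lay at 331 in siKrt15, 366 in siNeg and 389 in mock for 6 of 9 mesenchymal genes. They lay at 790, 762 and 825 in the same order for 4 of 5 immune genes. Of 4 endothelial genes only Pecam1 was above background, and Cdh5, Kdr and Tek were not well above background on any array. In such bulk RNA, a change in the share of cells of a type and a change in RNA per cell cannot be told apart.

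Members went higher in the siKrt15 array, by unequal amounts. Against siNeg, 8 of the 39 were higher by 2-fold or more and 0 were lower by as much, where 1.7% of 17156 measured genes were that much higher and 2.01% that much lower. The member median was 0.34, against −0.08 over all genes, and 30 members lay above 0, where 39.3% of all genes did. Against mock, 10 members were higher by 2-fold or more and 0 were lower by as much, where 2.19% of 17166 genes were that much higher and 1.25% that much lower. Here the member median was 0.40, against −0.07 over all genes, and again 30 lay above 0, where 41.9% of all genes did. The controls differed less, with 0 of 39 members 2-fold higher or lower in siNeg than in mock and a median of 0.04, where 0.355% of 17453 genes were that much higher and 0.0458% that much lower. The siKrt15 array is in both of its comparisons, so they are not independent.

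Of the members, 7 were at least 2-fold higher in siKrt15 than in both controls, namely Bard1, Palb2, Brip1, Rad51ap1, Rad54b, Exo1 and Fancd2, where 1.49% of 16950 genes were, and 0 were 2-fold lower than both, where 0.667% were. A further 4 passed 2-fold against 1 control, Polq against siNeg and Rad51b, Fancb and Fanci against mock, and 28 passed it against neither. Against siNeg, Rad51ap1 was called on 2 measured probes, and Bard1, Palb2, Brip1, Rad54b, Exo1, Fancd2 and Polq on 1 each. Brca1, Fanca and Fanci each had a 3′ probe past 2-fold against siNeg (1.48, 1.54 and 2.26), averaged with a probe below 0. The calls thus depend in part on how many probes were measured. Those below 0 against both controls numbered 7, Xrcc2, Rad52, Rbbp8, Fance, Mus81, Atm and Atr, and none of them reached 1.5-fold. Of these, Atr alone lay below 0 against siNeg under every processing setting tried. At a threshold of 1.5-fold, 16 members were higher than siNeg (4.81% of all genes) and 0 lower (8.65%). Against mock 19 were higher (5.84%) and 0 lower (7.69%), and in siNeg against mock 0 were higher (2.43%) and 0 lower (0.854%). Rad51c, Dna2, Nbn and Chek2 had opposite signs against the controls.

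**Figure D1:**
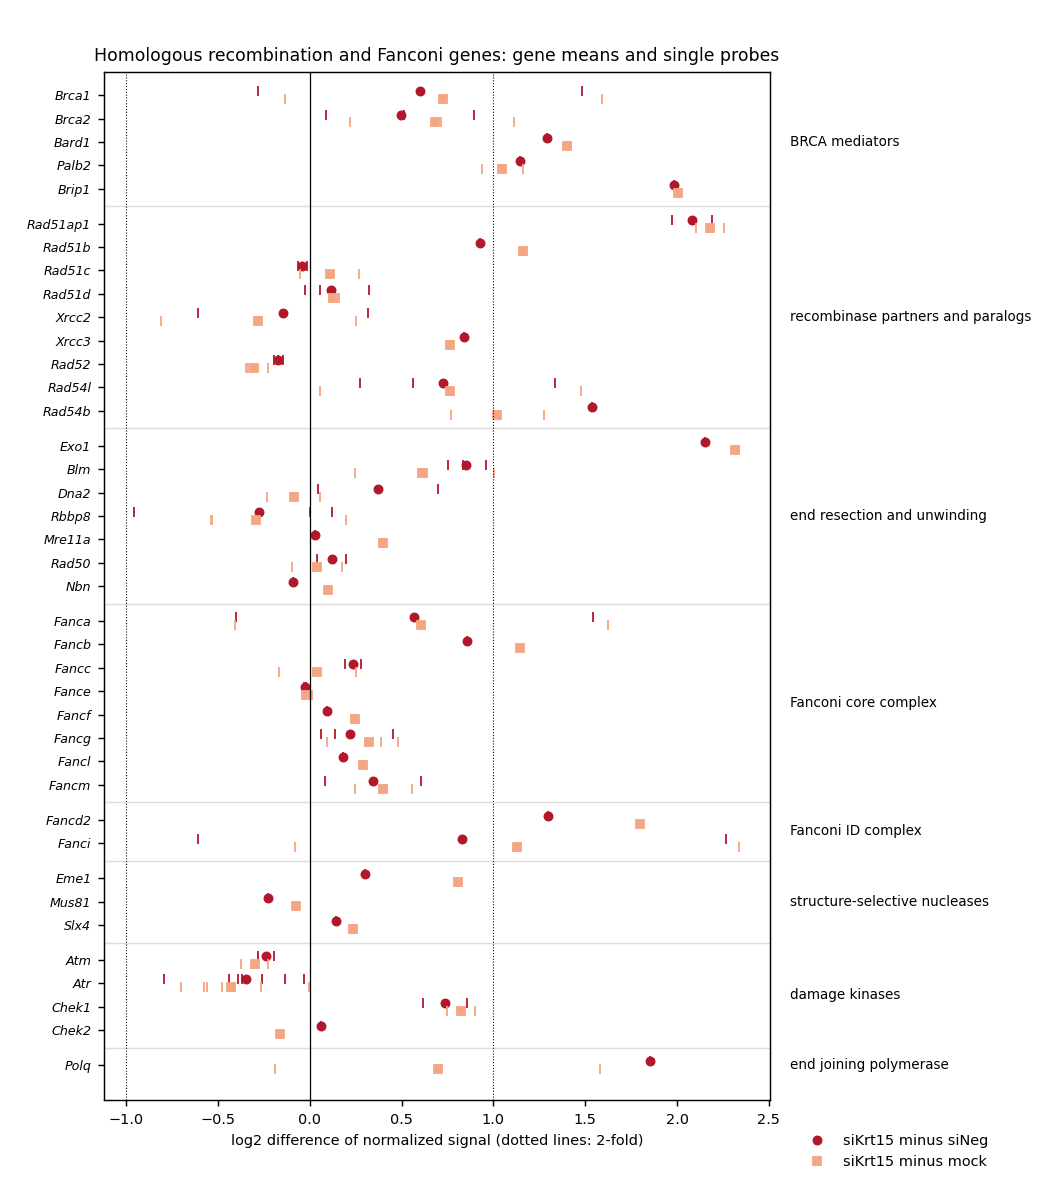
Log2 difference of normalized signal for each of the 39 members (rows, grouped by role), siKrt15 minus siNeg (circles) and siKrt15 minus mock (squares), 1 array per group; ticks are single measured probes and dotted lines mark 2-fold. The points reach 2.15 against siNeg and 2.32 against mock (both Exo1) and none lies beyond 2-fold on the lower side, while the probes of Brca1, Fanca and Fanci lie on both sides of 0.

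Promoter windows are shown for the 5 members at least 2-fold higher than siNeg that had one and, as a contrast, for the kinase gene Atm, which lay below both controls. They run from 250 bases before to 50 after a transcript start, in RefSeq's GRCm38.p6, and 31 members had a window, 34 windows in all. Exo1, Fancd2, Nbn, Rad50, Rad51d, Rad54b, Rbbp8 and Xrcc2 had none. Capitals mark the letters TTCCCGC, the core of the site bound by cell cycle factors of the E2F family, read on either strand (GCGGGAA when on the other).
Rad51ap1 promoter, chr6:126939538-126939837, minus strand: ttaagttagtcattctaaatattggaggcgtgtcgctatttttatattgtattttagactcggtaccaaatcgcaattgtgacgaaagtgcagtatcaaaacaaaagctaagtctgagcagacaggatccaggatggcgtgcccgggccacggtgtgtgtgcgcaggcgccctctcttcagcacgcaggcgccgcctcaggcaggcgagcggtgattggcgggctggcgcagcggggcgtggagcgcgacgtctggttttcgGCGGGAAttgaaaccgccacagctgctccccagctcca
Brip1 promoter, chr11:86201144-86201443, minus strand: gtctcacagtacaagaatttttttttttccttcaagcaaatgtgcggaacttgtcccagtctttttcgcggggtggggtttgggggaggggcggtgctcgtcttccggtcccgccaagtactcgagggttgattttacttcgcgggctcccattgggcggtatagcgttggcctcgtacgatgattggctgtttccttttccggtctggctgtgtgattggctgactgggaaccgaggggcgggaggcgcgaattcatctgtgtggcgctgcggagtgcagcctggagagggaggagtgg
Polq promoter, chr16:37011536-37011835, plus strand: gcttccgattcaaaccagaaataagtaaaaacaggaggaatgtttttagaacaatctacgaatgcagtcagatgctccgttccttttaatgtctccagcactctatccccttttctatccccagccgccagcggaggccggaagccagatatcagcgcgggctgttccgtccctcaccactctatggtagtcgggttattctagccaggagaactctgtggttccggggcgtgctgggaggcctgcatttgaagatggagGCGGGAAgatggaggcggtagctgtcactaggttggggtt
Bard1 promoter, chr1:71102923-71103222, minus strand: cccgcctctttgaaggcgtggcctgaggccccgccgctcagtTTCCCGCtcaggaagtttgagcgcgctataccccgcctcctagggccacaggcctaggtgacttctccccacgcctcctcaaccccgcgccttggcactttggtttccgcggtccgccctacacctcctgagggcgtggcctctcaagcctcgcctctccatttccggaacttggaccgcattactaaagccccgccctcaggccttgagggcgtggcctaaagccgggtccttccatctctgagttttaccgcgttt
Palb2 promoter, chr7:122132897-122133196, minus strand: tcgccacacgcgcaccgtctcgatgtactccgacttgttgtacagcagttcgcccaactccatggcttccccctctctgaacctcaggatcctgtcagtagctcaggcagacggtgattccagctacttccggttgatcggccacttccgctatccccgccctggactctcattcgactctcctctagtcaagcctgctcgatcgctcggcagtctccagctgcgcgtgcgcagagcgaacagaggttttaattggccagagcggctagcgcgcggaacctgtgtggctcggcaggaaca
Atm promoter, chr9:53536622-53536921, minus strand: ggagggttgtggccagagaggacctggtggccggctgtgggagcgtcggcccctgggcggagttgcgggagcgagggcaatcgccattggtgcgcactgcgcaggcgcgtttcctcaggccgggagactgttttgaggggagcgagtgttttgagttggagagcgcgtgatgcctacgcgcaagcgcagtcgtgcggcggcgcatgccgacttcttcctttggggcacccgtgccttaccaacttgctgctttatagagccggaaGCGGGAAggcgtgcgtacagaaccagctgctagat

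The TTCCCGC letters were in 13 of the 34 member windows (38.2%), against 4.6% of 32851 windows of all genes and 7.07% of 16964 windows of measured genes. In the windows above they begin 13 bases after the start in Rad51ap1, 11 after it in Polq, 16 after it in Atm, and 208 before it in Bard1, and the Brip1 and Palb2 windows do not hold them. Most members with the letters lay above 0 against siNeg, as did 30 of all 39 members. The letters were in 3 of 5 windows of members 2-fold higher than siNeg and in 10 of 29 windows of the others. Of the members below both controls, Atm and Rad52 held the letters, Atr, Fance and Mus81 did not, and Xrcc2 and Rbbp8 had no window. Over all genes, 7.33% of 273 windows of genes at least 2-fold higher than siNeg held them, close to the 7.07% of measured genes. The longer form TTTCCCGC, which contains TTCCCGC, was in 5 member windows (14.7%), against 1.07% of all windows. It was in 1.64% of windows of measured genes and 3.66% of windows of genes at least 2-fold higher than siNeg. TTTGGCGC and TTTGCCGC were in 0 member windows and TTTCGCGC in 1, against 0.514%, 0.441% and 0.323% of all windows. Any of these 8-letter forms was in 6 member windows, 1 of 5 for the 2-fold members and 5 of 29 for the others. Over all genes, 3.34% of windows of measured genes held such a form, and 6.96% of windows of genes at least 2-fold higher than siNeg. The shorter TTGGCGC was in 3 member windows, those of Brca1, Fancf and Rad51c, against 2.45% of all windows.

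Letters of late cell cycle promoters were searched as well. TTTGAA or TTCGAA, letters of the CHR element of genes that peak in G2 and mitosis, were in 5 member windows (14.7%), against 19.2% of all windows, 15.1% of windows of measured genes and 31.5% of windows of genes at least 2-fold higher than siNeg. Of the 5 windows of 2-fold members 2 held them. The CCAAT letters were in 20 member windows (58.8%), against 37.4% of all windows, 37.6% of windows of measured genes and 47.3% of windows of the 2-fold higher genes. The palindromic motif of Nrf1 was in 1 member window, against 0.971% of all. Such matches are letters in a window and say nothing of whether a factor binds there.

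The BRCA mediators lay above 0 as gene values. All 5 did so against both controls, although Brca1 turned to −0.28 against siNeg and −0.14 against mock where its brighter, upstream probe alone was taken, and to −0.02 against siNeg with no filter on dim probes. Of the 5, 3 were at least 2-fold higher than siNeg (1.7% of all genes) and 3 than mock (2.19%), and the medians were 1.14 and 1.05. Brip1, a helicase that binds Brca1, had a 3′ probe with a signal of 35.7 in siKrt15, against 7.52 in siNeg and 7.86 in mock. That put it 1.99 ± 0.28 higher than siNeg and 2.01 ± 0.27 higher than mock on the log2 scale, 3.96-fold and 4.02-fold. Its probe far upstream was well above background in siKrt15 alone, 2.04-fold higher than siNeg as a plain ratio and at least 2.54-fold higher than mock. The errors there were 0.41 and 0.63 on the log2 scale. Values marked at least set the bright array against the lowest signal well above background on the dim array. Where the dim probe's own signal is higher, the plain ratio to it is given, which is no lower limit. Neither kind takes the error into account.

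Bard1, the RING partner that Brca1 needs for its ubiquitin ligase activity, read 189 in siKrt15, against 64.4 in siNeg and 63.4 in mock. The controls nearly coincided and siKrt15 stood 1.29 ± 0.21 and 1.40 ± 0.21 above them. Palb2, the bridge between Brca1 and Brca2, read 33.6 in siKrt15, 12.7 in siNeg and 13.3 in mock on its 3′ probe. Its gene value was 1.14 ± 0.24 against siNeg and 1.05 ± 0.28 against mock. A second Palb2 probe, 5.79 kb upstream, read 12.3 in siKrt15, 2.69 in siNeg, where it was not well above background, and 5.68 in mock.

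Brca1 and Brca2 themselves stayed under 2-fold as gene means, and their probes differed by position. Brca2, a mediator of strand exchange that acts on single-stranded DNA, had differences from siNeg of 0.90 at its 3′ probe, 0.51 at a probe 32.8 kb upstream and 0.09 at a probe 46.4 kb upstream, with a mean of 0.50 ± 0.21. Against mock these were 1.11, 0.71 and 0.22. Brca1, the scaffold that favours end resection, read 150 in siKrt15, 44.8 in siNeg and 44.1 in mock at its 3′ probe, a difference of 1.48 from siNeg and 1.59 from mock. At a probe 36 kb upstream it read 99.0 in siKrt15, 100 in siNeg and 96.3 in mock, a difference of −0.28 and −0.14. The mean of 0.60 ± 0.21 thus joins a probe past 2-fold with a probe below 0.

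Upstream probes of Brca1, Brca2, Fanca and Chek1 are printed because the values at them are compared with those at the 3′ probes of the same genes. Coordinates are the array's own on mm9, without an mm9 annotation of exons, and letters are the probe as designed, with none in capitals.
Brca1 upstream probe, chr11:101386419-101386478, minus strand: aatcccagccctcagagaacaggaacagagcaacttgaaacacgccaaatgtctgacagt
Brca2 middle probe, chr5:151339455-151339514, plus strand: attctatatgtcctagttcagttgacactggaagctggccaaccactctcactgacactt
Brca2 upstream probe, chr5:151325787-151325846, plus strand: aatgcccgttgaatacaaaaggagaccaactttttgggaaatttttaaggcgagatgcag
Fanca upstream junction probe, chr8:125813811-125815354, minus strand: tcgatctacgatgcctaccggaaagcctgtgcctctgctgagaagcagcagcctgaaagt
Chek1 upstream probe, chr9:36531507-36531566, minus strand: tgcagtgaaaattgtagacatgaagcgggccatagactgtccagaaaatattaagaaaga

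Among recombination partners and paralogs, Rad51ap1 and Rad54b stood highest against siNeg. Of the 9 genes 2 were at least 2-fold higher than siNeg (1.7% of all genes) and 3 than mock (2.19%), with medians of 0.72 and 0.76. Rad51ap1, which helps joint molecules to form between the partner strands, read 450 and 181 at its 3′ probes in siKrt15. The same probes read 95.8 and 33.1 in siNeg, and 92.7 and 33.5 in mock. Both probes stood apart from both controls, and the gene was 2.08 ± 0.21 above siNeg and 2.18 ± 0.21 above mock, 4.24-fold and 4.53-fold. A further Rad51ap1 probe to another transcript went the other way. It read 4.49 in siKrt15, where it was not well above background, 5.94 in siNeg and 9.13 in mock. As plain ratios that is 1.58-fold (error 0.45 on the log2 scale) lower than siNeg and 2.3-fold (0.41) lower than mock.

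Rad54b, a DNA translocase, read 150 in siKrt15, 43.1 in siNeg and 54.6 in mock at its 3′ probe, 1.54 ± 0.21 above siNeg. Against mock a second probe was measured too, 45.9 kb upstream at an exon junction. Its signal was 13.0 in siKrt15, 4.17 in siNeg, not well above background there, and 6.73 in mock, and with it the gene value against mock was 1.02 ± 0.27. The related translocase Rad54l had probes at 1.33, 0.56 and 0.28 against siNeg, and its mean was 0.72 ± 0.26. Its probe to the RefSeq mRNA was the highest, with 39.8 in siKrt15, against 13.2 in siNeg and 12.6 in mock.

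The 5 paralogs, which assist strand exchange as 2 complexes, had a median of 0.12 against siNeg and 0.13 against mock. Rad51b read 117 in siKrt15, 51.2 in siNeg and 46.1 in mock, a difference of 0.93 ± 0.21 from siNeg and 1.16 ± 0.21 from mock. Xrcc3 read 112 in siKrt15, 52.4 in siNeg and 58.5 in mock, 0.84 ± 0.21 and 0.76 ± 0.21 higher. These were the paralogs that stood apart from the controls. Rad51d differed by 0.12 and 0.13 and Rad51c by −0.04 and 0.11, both within the error-model SD. The Rad51c value joins 2 probes of very unlike brightness. Its RefSeq probe read 31.0 in siKrt15, 26.2 in siNeg and 22.7 in mock, at −0.02 from siNeg and 0.27 from mock. A probe to another transcript read 28458, 24810 and 26127 in the same order, at −0.06 and −0.05. Xrcc2 differed by −0.14 ± 0.27 and −0.28 ± 0.26, with its RefSeq probe at 0.32 and its other probe at −0.61 against siNeg. Rad52, which anneals single strands, was at −0.17 ± 0.21 and −0.30 ± 0.21, and its 3 probes read within 0.05 of each other against siNeg.

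Among end resection and unwinding genes Exo1 alone passed 2-fold. Of 7 genes 1 was at least 2-fold higher than each control, where 1.7% of all genes were against siNeg and 2.19% against mock. The medians were 0.12 against siNeg and 0.10 against mock. Exo1, a 5′ to 3′ exonuclease of long-range resection, read 349 in siKrt15, against 65.7 in siNeg and 62.0 in mock. Its difference was 2.15 ± 0.21 from siNeg and 2.32 ± 0.21 from mock, 4.44-fold and 4.98-fold, on a single probe. It was the highest of the 39 members against each control.

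Blm, the RecQ helicase that unwinds ends and dissolves joined strands, had a mean signal over 3 probes of 117 in siKrt15, 54.5 in siNeg and 67.9 in mock. All 3 probes lay between 0.75 and 0.96 above siNeg, and the gene was 0.85 ± 0.21 above siNeg and 0.61 ± 0.21 above mock. Dna2, a nuclease and helicase, was 0.37 ± 0.23 above siNeg and −0.09 ± 0.22 from mock, since siNeg itself lay −0.44 from mock. The factors that start resection were nearer to the controls than Exo1. The Mre11a nuclease read 1206 in siKrt15, 988 in siNeg and 809 in mock, differences of 0.03 and 0.40. Rad50, its ATPase partner, differed by 0.12 and 0.04, and Nbn, which recruits Atm, by −0.09 and 0.10. Rbbp8, the partner that activates Mre11a, was at −0.28 ± 0.26 and −0.29 ± 0.27, with its 3′ probe at 0.12, its middle probe at 0.00 and its most upstream probe at −0.96 against siNeg.

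**Figure D2:**
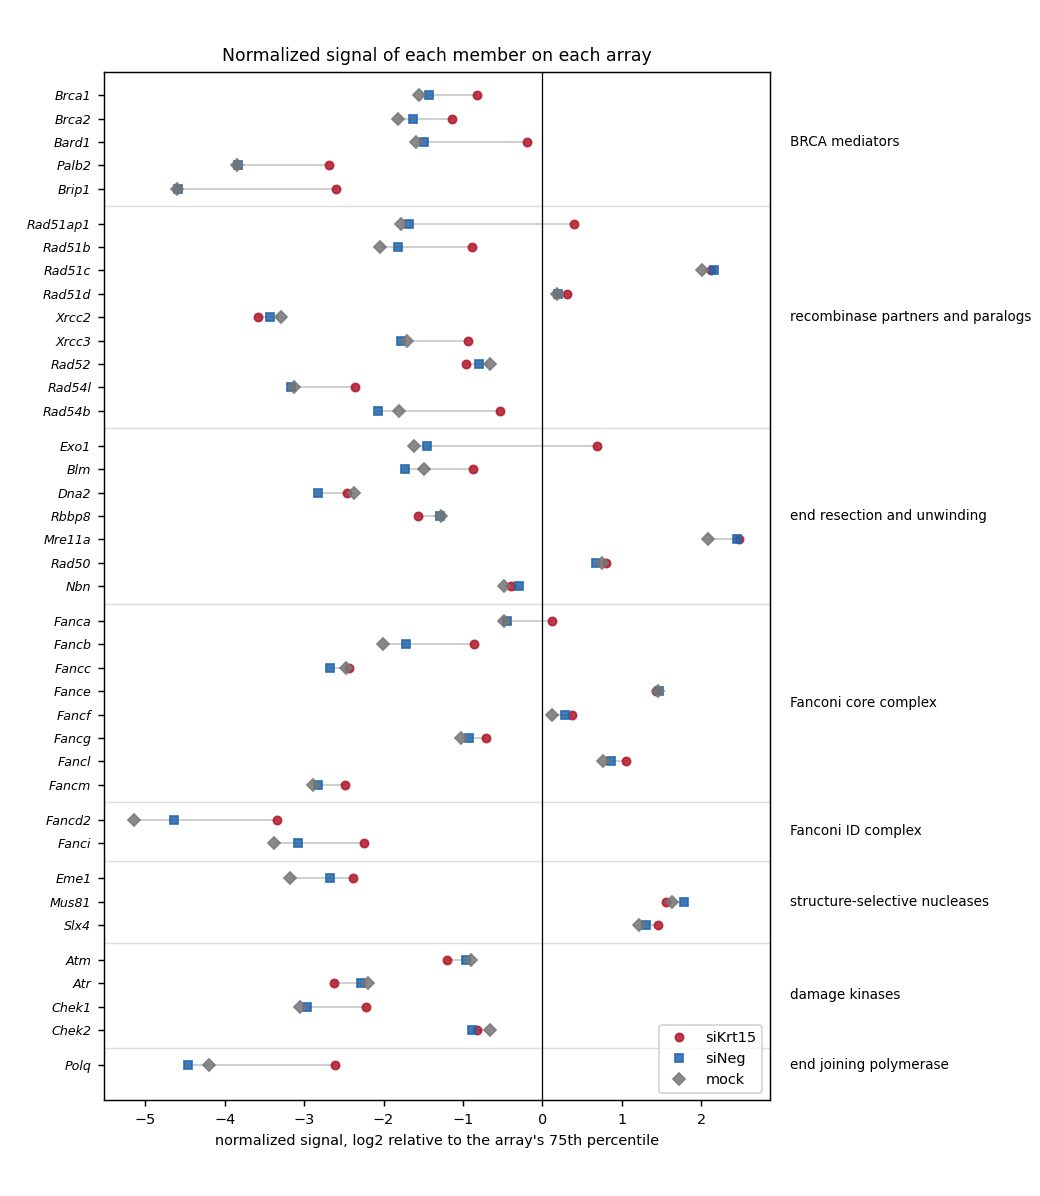
Normalized signal of each member on each array (x axis, log2 relative to the array's 75th percentile; circles siKrt15, squares siNeg, diamonds mock; mean over probes measured on all 3 arrays). The siKrt15 circle stands to the right of a close pair of control symbols for Brip1, Rad51ap1 and Exo1, and the 3 symbols nearly coincide for Fance and Rad51d; positions are not comparable between genes, because probes differ in brightness.

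The Fanconi core complex, the ubiquitin ligase of the pathway, stayed mostly under 2-fold. Of its 8 genes 0 were at least 2-fold higher than siNeg (1.7% of all genes) and 1 than mock (2.19%). Its medians were 0.23 and 0.30, against −0.08 and −0.07 over all genes. In each comparison 7 of 8 lay above 0, where 39.3% and 41.9% of all genes did. Fancb, the X-linked subunit that holds the ligase module together, read 119 in siKrt15, 54.9 in siNeg and 47.6 in mock, 0.86 ± 0.21 and 1.15 ± 0.21 higher. Fanca, a structural subunit, was 0.57 ± 0.20 and 0.61 ± 0.20 higher, as the mean of probes that disagreed. Its 3′ probe read 480 in siKrt15, 137 in siNeg and 138 in mock, a difference of 1.54 and 1.62. The probe 21.6 kb upstream, across an exon junction, read 115 in siKrt15, 127 in siNeg and 135 in mock, a difference of −0.40 and −0.41.

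The other core genes lay within 0.40 of 0 in both comparisons. Fancm, the translocase that anchors the complex to DNA, was at 0.34 ± 0.21 and 0.40 ± 0.21, and the catalytic subunit Fancl at 0.18 ± 0.20 and 0.29 ± 0.20. The adaptor subunits Fancg (0.22 and 0.32), Fancc (0.24 and 0.04), Fancf (0.09 and 0.25) and Fance (−0.03 and −0.01) followed. Fance read 585 in siKrt15, 497 in siNeg and 522 in mock, in the order of the arrays' 75th percentiles, and differed by less than the error-model SD after scaling.

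The substrates of that ligase were higher. Fancd2 read 21.3 in siKrt15, 7.22 in siNeg and 5.42 in mock, 1.30 ± 0.29 above siNeg and 1.80 ± 0.33 above mock. It was dim on all arrays, and siNeg lay 0.50 ± 0.37 above mock. Fanci, its partner in the clamp, had the widest gap between probes of all members. The probe to its RefSeq mRNA read 118 in siKrt15, 20.5 in siNeg and 20.6 in mock, a difference of 2.26 and 2.34. A probe 40.5 kb upstream, to another transcript, read 17.6 in siKrt15, 22.4 in siNeg and 16.4 in mock, a difference of −0.61 and −0.08. The Fanci gene value was 0.83 ± 0.23 against siNeg and 1.13 ± 0.23 against mock.

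Nucleases and kinases stayed under 2-fold, as did most genes, since 1.7% of all genes were 2-fold higher than siNeg and 2.19% than mock. Eme1, the partner of the Mus81 nuclease, was at 0.30 ± 0.21 and 0.81 ± 0.22, with siNeg 0.51 ± 0.22 above mock. Mus81 was at −0.23 and −0.07, and Slx4, the scaffold on which nucleases assemble, at 0.14 and 0.23. Chek1, the kinase that restrains the cell cycle downstream of Atr, had a mean signal of 46.2 in siKrt15, 23.2 in siNeg and 23.1 in mock. Its 2 probes were 0.62 and 0.86 above siNeg, and 0.74 and 0.90 above mock, so its 3′ probe was here the lower.

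The sensor kinases did not follow Chek1. Atm, activated by double-strand breaks, was at −0.24 ± 0.21 and −0.30 ± 0.21, and its effector Chek2 at 0.06 and −0.16. Atr, activated by single-stranded DNA, was the lowest member, at −0.34 ± 0.23 and −0.43 ± 0.23. Its probe to the RefSeq mRNA read 1103 in siKrt15, 941 in siNeg and 978 in mock, at −0.03 from siNeg and 0.00 from mock. Its other 6 measured probes, to other transcripts, lay between −0.79 and −0.13 of siNeg. All 7 probes were thus below 0 against siNeg, but the RefSeq probe hardly so.

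Polq, the polymerase that joins ends through short shared sequences, stood near the highest members at its 3′ probe. That probe read 35.3 in siKrt15, 8.16 in siNeg and 10.4 in mock, a difference of 1.85 ± 0.27 from siNeg and 1.58 from mock. Against mock another probe, 77.8 kb upstream and to another transcript, was measured as well. It read 4.79 in siKrt15, 4.51 in siNeg, where it was not well above background, and 4.82 in mock. With it the mean against mock was 0.70 ± 0.35, and Polq is left out of the count against mock through that dim probe.

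Probe position and class marked many of these differences. Of the 21 members with 2 or more probes measured against siNeg, 15 had all probes on the same side of 0 and 6 had probes on both sides, where 40.1% of 7606 genes did. The probes spanned more than 1 on the log2 scale in 5 members, where 5.13% of genes did. The most 3′ probe was the highest in 16 of 21 members (76.2%), where it was in 53.3% of 7469 genes. Against mock it was the highest in 15 of 24 (62.5%), where it was in 55.6% of genes, and for siNeg against mock in 8 of 21 (38.1%), where it was in 44.9%. The 3′ probe lay above the most 5′ probe by a median of 0.26 in members and 0.08 over all genes, both for siKrt15 against siNeg.

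Among probes measured on both arrays, those at least 2-fold higher were all named by a RefSeq mRNA. Of 56 such member probes measured against siNeg 13 were at least 2-fold higher, with a median of 0.29, where 1.94% of such probes of all genes were, with a median of −0.03. Of 16 measured member probes to other listed transcripts 0 were, and their median of −0.20 was that of such probes of all genes (−0.20). Over all genes 0.611% of such probes were at 2-fold, so 0 of 16 lies near that share and is not read as a result. Against mock these counts were 17 of 58 and 0 of 16, where 2.52% and 0.744% of such probes of all genes were 2-fold higher. Class and position overlap in these members, and which of them, RNA quality or transcript usage goes with the gap was not tested.

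Of all 90 member probes, 71 were well above background on all 3 arrays and 7 on none. The 5 found in siKrt15 alone belonged to Bard1, Palb2, Brip1, Rad54b and Polq. They passed the filter only on the array where these genes were called higher, so they give the calls no independent support. The same split over all probes of the array was not counted, so these numbers are not read as a result about the members. The Bard1, Palb2, Rad54b and Polq probes were at least 1.12-fold, 1.17-fold, 1.51-fold and 1.26-fold higher than siNeg. The Brip1 probe was 2.04-fold higher as a plain ratio. The 3 found in both controls but not in siKrt15 belonged to Rad51ap1, Dna2 and Atr and were all to transcripts other than RefSeq mRNAs. The Dna2 probe read 3.59 in siKrt15, against 5.41 in siNeg and 7.54 in mock. As plain ratios that is 1.81-fold (error 0.50 on the log2 scale) lower than siNeg and 2.38-fold (0.47) lower than mock. The Atr probe read 3.26 in siKrt15, against 5.39 in siNeg and 7.0 in mock. As plain ratios that is 1.98-fold (error 0.55 on the log2 scale) lower than siNeg and 2.43-fold (0.52) lower than mock. Such probes do not enter the gene values, so the counts of 0 lower members leave them out. With all measured genes ranked by mean signal and cut into equal parts, 4 of the 13 members in the dimmest part were at least 2-fold higher than siNeg (2.24% of genes there). Of the 19 members in the middle part 4 were (2.29%), and of the 7 in the brightest part 0 were (0.577%).

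Other repair genes moved less as lists. Of 47 further homologous recombination and Fanconi genes 3 were at least 2-fold higher than siNeg (1.7% of all genes) and 0 lower (2.01%). Their median was 0.16. Against mock 4 were higher (2.19% of all genes), among them Psmc3ip at 1.13. Hrob, which brings the helicase of Mcm8 and Mcm9 to recombination sites, was at 2.04 ± 0.21 against siNeg and Mcm8 at 1.09 ± 0.20. Parpbp, which restrains recombination, was at 1.76 ± 0.24 against siNeg. Hrob read 275 in siKrt15, 55.9 in siNeg and 52.0 in mock, so that the controls nearly coincided, as for Exo1.

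In the other pathways few genes passed 2-fold, in lists too small to be set against the share of 1.7% over all genes. Of 15 measured non-homologous end joining genes 0 were 2-fold higher or lower, with a median of −0.01. None of 7 mismatch repair genes (0 higher, 0 lower, median 0.17) and none of 17 nucleotide excision repair genes (0 higher, 0 lower, median −0.09) passed 2-fold either. Of 18 base excision repair genes 1 was higher, Neil3, a glycosylase that also opens cross-links, at 1.72 ± 0.22 (73.1 in siKrt15, 18.5 in siNeg and 18.4 in mock), and their median was 0.15. Meiotic recombination genes, which act mainly in germ cells, were measured for 4 of 9 genes with 0 higher, and Spo11, Hormad1 and Sycp1 were not well above background on any array.

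Proliferation markers moved with the members. Of 16 such genes 11 were at least 2-fold higher than siNeg (1.7% of all genes) and 11 than mock (2.19%). By as much lower were 0 against each control (2.01% and 1.25% of all genes), and the medians were 1.34 and 1.47. Their summed signal was 12596 in siKrt15, against 6627 in siNeg and 6543 in mock. The highest were cyclin A2 (Ccna2) at 2.08 against siNeg, Birc5 at 2.04, Mki67 at 1.99 and Mcm5 at 1.96. Among the members Exo1 was at 2.15 and Rad51ap1 at 2.08. Under 2-fold lay Mcm2 (0.65), Cdt1 (0.56), Tyms (0.32), Gmnn (0.17) and the clamp Pcna (0.09). The part of cycling cells in the differences of the repair genes was not tested.

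**Figure D3:**
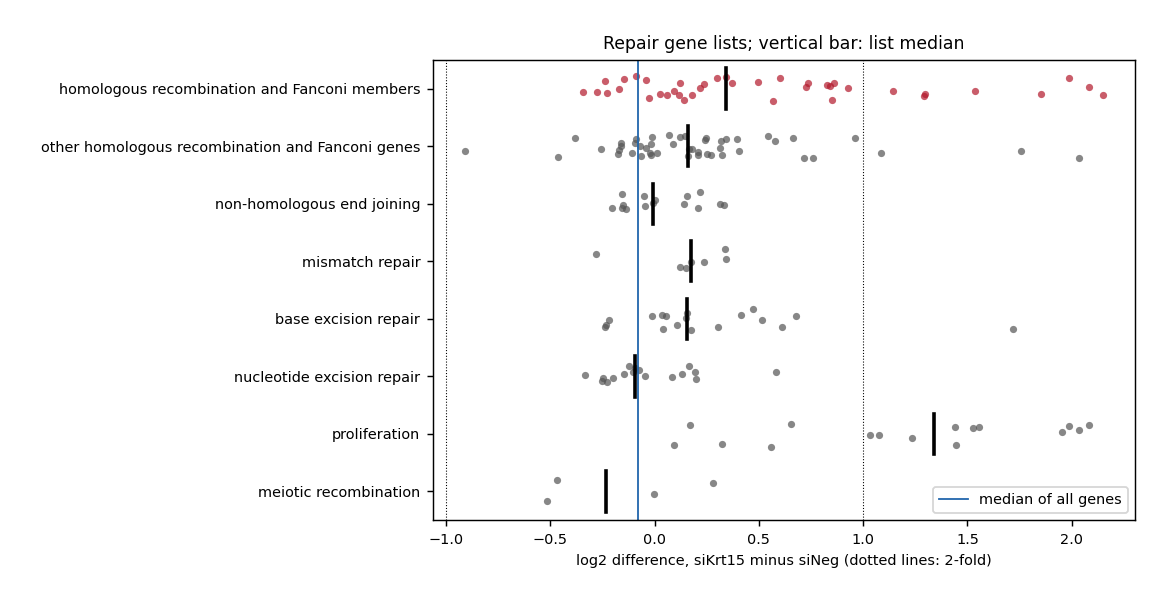
Difference between siKrt15 and siNeg (x axis, log2) for each measured gene of 8 lists (rows; 1 point a gene, vertical spread within a row only for legibility); black bars are list medians, the blue line is the median of all genes and dotted lines mark 2-fold. The proliferation median is 1.34 and that of the 39 members 0.34, and the end joining and nucleotide excision repair medians of −0.01 and −0.09 lie near the median of all genes, −0.08.

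Between the controls themselves the members hardly differed. In siNeg against mock 24 lay above 0 and 15 below, where 55.5% of all genes lay above, and the extremes were Eme1 at 0.51 ± 0.22 and Dna2 at −0.44 ± 0.28. The SD over the members was 0.21 for siNeg against mock, 0.69 for siKrt15 against siNeg and 0.71 for siKrt15 against mock, and over all genes 0.23, 0.42 and 0.43 in the same order.

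Exo1 and Rad51ap1 were past 2-fold against both controls in all 12 processing settings, the reported one included, and 27 members lay above 0 wherever they were measured in each comparison with siKrt15. Rad52, Atm, Atr and Chek2 lay below 0 against mock in all. The counts moved with the processing in both directions. Under the normexp correction of the unsubtracted signals, which adds a constant and draws dim probes together, 2 members were past 2-fold higher against siNeg, where 0.478% of all genes were, and 2 against mock, where 0.594% were.

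**Figure D4:**
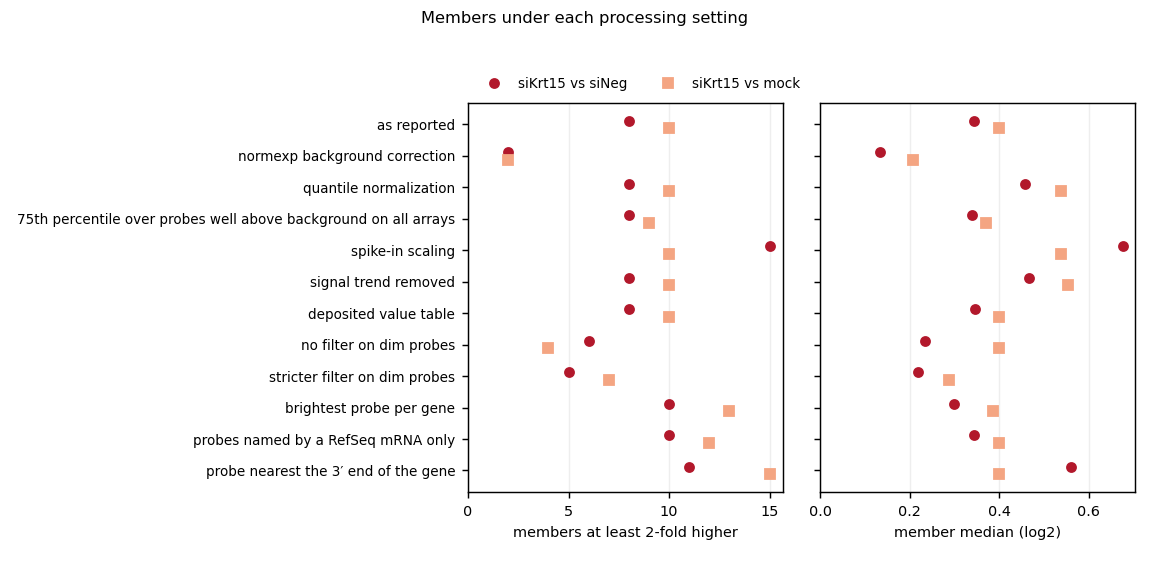
Number of the 39 members at least 2-fold higher in siKrt15 (left panel) and member median difference (right panel, log2) under each processing setting (rows), against siNeg (circles) and mock (squares); points are values from 1 array per group. Counts run from 2 under normexp to 15, reached with spike-in scaling against siNeg and with the most 3′ probe against mock, and every median lies above 0.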

How the data were processed

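Per the file headers and labels, Cy3-labelled cRNA was hybridised to 1-colour Agilent arrays, and signals were extracted with Agilent Feature Extraction 11.5.1.1, per the submitters' processing notes. The deposited scanner files hold each spot's processed signal, a background-subtracted intensity on a linear scale. The value table that the authors deposited is on a log2 scale. Compared with the scanner output it is the log2 processed signal minus about each array's 75th percentile, uncentred (92.4% to 94.0% of probes within 0.01), with medians of −3.72 for siKrt15, −3.51 for siNeg and −3.52 for mock.

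Here log2 processed signals minus each array's 75th percentile over probes that were not controls were used, without outlier spots, and spots of a probe were averaged. Probes were named through the RefSeq GRCm38.p6 gene table (33890 by accession, 9468 by symbol, 488 by synonym), and 12759 kept the name in the files. The older aliases of Brip1 and Chek2 that belong by accession to Bach1 and Cds1 were not used. A probe was measured if it was well above background and unsaturated on both arrays, and the differences of a gene's measured probes were averaged. All 39 members are named, by rule. The members and comparison lists were chosen with earlier results of these data known, and 1 item of the comparison lists is not reported here.

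With 1 array per group there is no test, and that number of arrays sets the precision. The alternatives were 11 settings, of which 2 (RefSeq mRNA probes only, most 3′ probe) were added after the data were seen, and a 1.5-fold threshold. Scripts were tested on simulated data. Python 3.11.15, pandas 2.3.3, numpy 2.4.6, R 4.3.3 and limma 3.58.1 (normexp, offset 50) were used.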

Additional observations from a re-analysis of the deposited data

How the results depend on the processing

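No paired analysis was possible because each group has 1 array. No setting turned a member count or a called member round, and 0 members were 2-fold lower in any of them. With normexp background correction 2 members were at least 2-fold higher than siNeg (median 0.13) and 2 than mock, while the shares of all genes fell to 0.478% and 0.594%. Spike-in scaling gave 15 against siNeg (median 0.68), where 3.88% of all genes passed, and it moved the median of all genes against siNeg to 0.25, from −0.08 as reported, so part of that rise is common to all genes. The stricter filter on dim probes gave 5 of 35 members still measured against siNeg (1.5% of all genes), and no filter gave 4 against mock (2.61%). The 1.5-fold threshold gave 16 against siNeg, where 4.81% of all genes passed it, and 19 against mock, where 5.84% did. The most 3′ probe per gene gave a median of 0.56 against siNeg. Over all settings the member median ran from 0.13 to 0.68 against siNeg, from 0.21 to 0.55 against mock and from −0.16 to 0.08 for siNeg against mock. Of the member values under alternatives, 167 moved by more than the error-model SD and 1108 did not. Higher genes were 45.9% of all genes past 2-fold against siNeg, but 87.7% with spike-in scaling, 78.1% with normexp, 72.6% with quantile normalization and 72.6% with the signal trend removed, 75.7% with the stricter filter and 18.8% with none. The cause of these shifts was not tested. Dim members limit the counts, since Brip1, Fancd2 and Polq read under 11 in the controls.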

Other observations

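By position on mm9, 7 of the 39 members lay on chromosome 11 (Brca1, Brip1, Rad51c, Rad51d, Rad50, Fancl and Eme1), and their differences from siNeg ran from −0.04 for Rad51c to 1.99 for Brip1. The share of all genes on that chromosome was not counted, so the number is not read as clustering.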
